A study of Mus musculus with 3 samples.

Results

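The nuclear genes for the subunits of the mitochondrial respiratory chain and ATP synthase were described in bulk RNA from mouse large-intestinal cells sorted as lymphatic endothelium. They were chosen by symbol: Ndufa, Ndufb, Ndufc, Ndufs and Ndufv genes with a number, Cox4 to Cox8 genes, Uqcr and Atp5 genes, Sdha, Sdhb, Sdhc, Sdhd, Cyc1 and Cycs. This rule found 86 of the 24091 genes in the deposited tables, and no measured value entered it. By known function 35 belong to complex I, 4 to complex II, 9 to complex III, 19 to complex IV and 15 to complex V. Cycs encodes the carrier cytochrome c, and 3 genes with matching symbols (Cox7a2l, Atp5sl and Atp5s) encode proteins that are not established subunits. Ndufa4 and Ndufa4l2 were placed with complex IV, of which NDUFA4 is now counted a subunit.

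The 3 libraries, replicates 1, 2 and 3, form 1 group: C57BL/6 mice, large intestine, cells sorted after digestion of the tissue on lymphatic markers that include CD31, Podoplanin and Lyve1, with no treatment or genotype given and no second group. Each library has 1 value per gene in TPM, a transcript abundance unit that corrects for transcript length and for the size of the library. Separate animals are not stated for the libraries, and p-values measure only the spread between libraries, which may be technical.

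Oxidative phosphorylation moves electrons from NADH and succinate through complexes I and II to coenzyme Q, then through complex III and cytochrome c to complex IV, which reduces oxygen. Complexes I, III and IV pump protons across the inner mitochondrial membrane, and ATP synthase (complex V) uses the return flow to make ATP. Most subunits are encoded in the nucleus and imported, while a small set in complexes I, III, IV and V is encoded in mitochondrial DNA and is not analysed here. Endothelial cells are known to make much of their ATP by glycolysis, and colonocytes are known to oxidise butyrate in their mitochondria.

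The promoters of some of these genes are known to be bound by NRF1 (nuclear respiratory factor 1). The NRF1 core letters GCATGCGC stood upstream of the start in 9 members whose sequence is shown here because the motif was found in a larger share of these promoters than of expressed genes in general (values further on). Each line gives 60 bases upstream of the RefSeq start on the gene's strand (build GRCm38.p6), 5′ to 3′, with the motif in capitals. A longer run of capitals marks copies on both strands that overlap.
Ndufa6, chr15:82354341-82354400, minus strand: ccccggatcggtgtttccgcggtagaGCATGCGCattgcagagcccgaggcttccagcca
Ndufa8, chr2:36049339-36049398, minus strand: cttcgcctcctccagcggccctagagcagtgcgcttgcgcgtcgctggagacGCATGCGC
Ndufa11, chr17:56717677-56717736, plus strand: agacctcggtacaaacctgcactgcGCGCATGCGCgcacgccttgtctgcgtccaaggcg
Sdhb, chr4:140961191-140961250, plus strand: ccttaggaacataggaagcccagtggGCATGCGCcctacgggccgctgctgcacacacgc
Cycs, chr6:50566596-50566655, minus strand: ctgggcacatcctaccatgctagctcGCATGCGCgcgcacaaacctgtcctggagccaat
Cox6a1, chr5:115349086-115349145, minus strand: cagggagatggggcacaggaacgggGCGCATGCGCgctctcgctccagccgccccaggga
Atp5g2, chr15:102671055-102671114, minus strand: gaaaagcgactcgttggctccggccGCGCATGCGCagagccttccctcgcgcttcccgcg
Atp5k, chr5:108434415-108434474, minus strand: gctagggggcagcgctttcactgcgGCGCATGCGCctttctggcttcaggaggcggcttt
Atp5l, chr9:44920933-44920992, minus strand: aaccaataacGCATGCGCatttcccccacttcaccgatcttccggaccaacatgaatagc

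These lines span complex I accessory genes (Ndufa6, Ndufa8 and Ndufa11), the iron-sulfur subunit gene of complex II (Sdhb), Cycs, the complex IV gene Cox6a1 and 3 ATP synthase genes. Their transcript levels are far apart: Ndufa11 had 65.7, 62.0 and 65.2 TPM in replicates 1, 2 and 3, the lowest of complex I, and Cox6a1 had 2628, 2767 and 2835 TPM, the highest of all 86 genes. Genes that share the letters therefore had very unequal levels.

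The tables summed to 999939, 999907 and 999896 TPM in replicates 1, 2 and 3. TPM values keep no sequencing depth, so depth is unknown and no counting interval was computed. The markers of lymphatic endothelium were present: 9 of the 10 listed genes were found, all 9 at TPM 1 or more in every library, with sums of 1621, 1696 and 929.8 TPM in replicates 1, 2 and 3. All 14 markers of colon epithelium were also present and summed to 19080, 22587 and 24364 TPM, above the lymphatic sum in each library. The 8 blood endothelium markers summed to 808, 737 and 872 TPM and the 6 markers of all endothelium to 1145, 979 and 677 TPM. The fibroblast, smooth muscle and leukocyte lists, with all 7, 7 and 8 genes at TPM 1 or more in every library, had their lowest sums in replicate 2 and their highest in replicate 3 (124 to 448, 181 to 404 and 166 to 542 TPM). In such bulk RNA, fewer cells of a type and less RNA per cell cannot be told apart, nor can the cells from which a member's transcripts came.

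The respiratory chain genes were among the more abundant transcripts of these libraries. Of the 86 genes, 82 had TPM 1 or more in all 3 libraries (95.3%), against 53.4% of all genes. A mean of 100 TPM or more was reached by 74 members (86.0%), against 5.89% of all genes, and a mean of 1000 TPM or more by 19 members (22.1%), against 0.656%. The 4 genes below 1 TPM in at least 1 library (Cox6a2, Cox8b, Cox7b2 and Cox8c) are all tissue-restricted isoforms of complex IV. Together the 86 genes took 5.76%, 5.65% and 5.74% of all TPM in replicates 1, 2 and 3 (5.72% ± 0.0591, SD, n = 3).

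**Figure D1:**
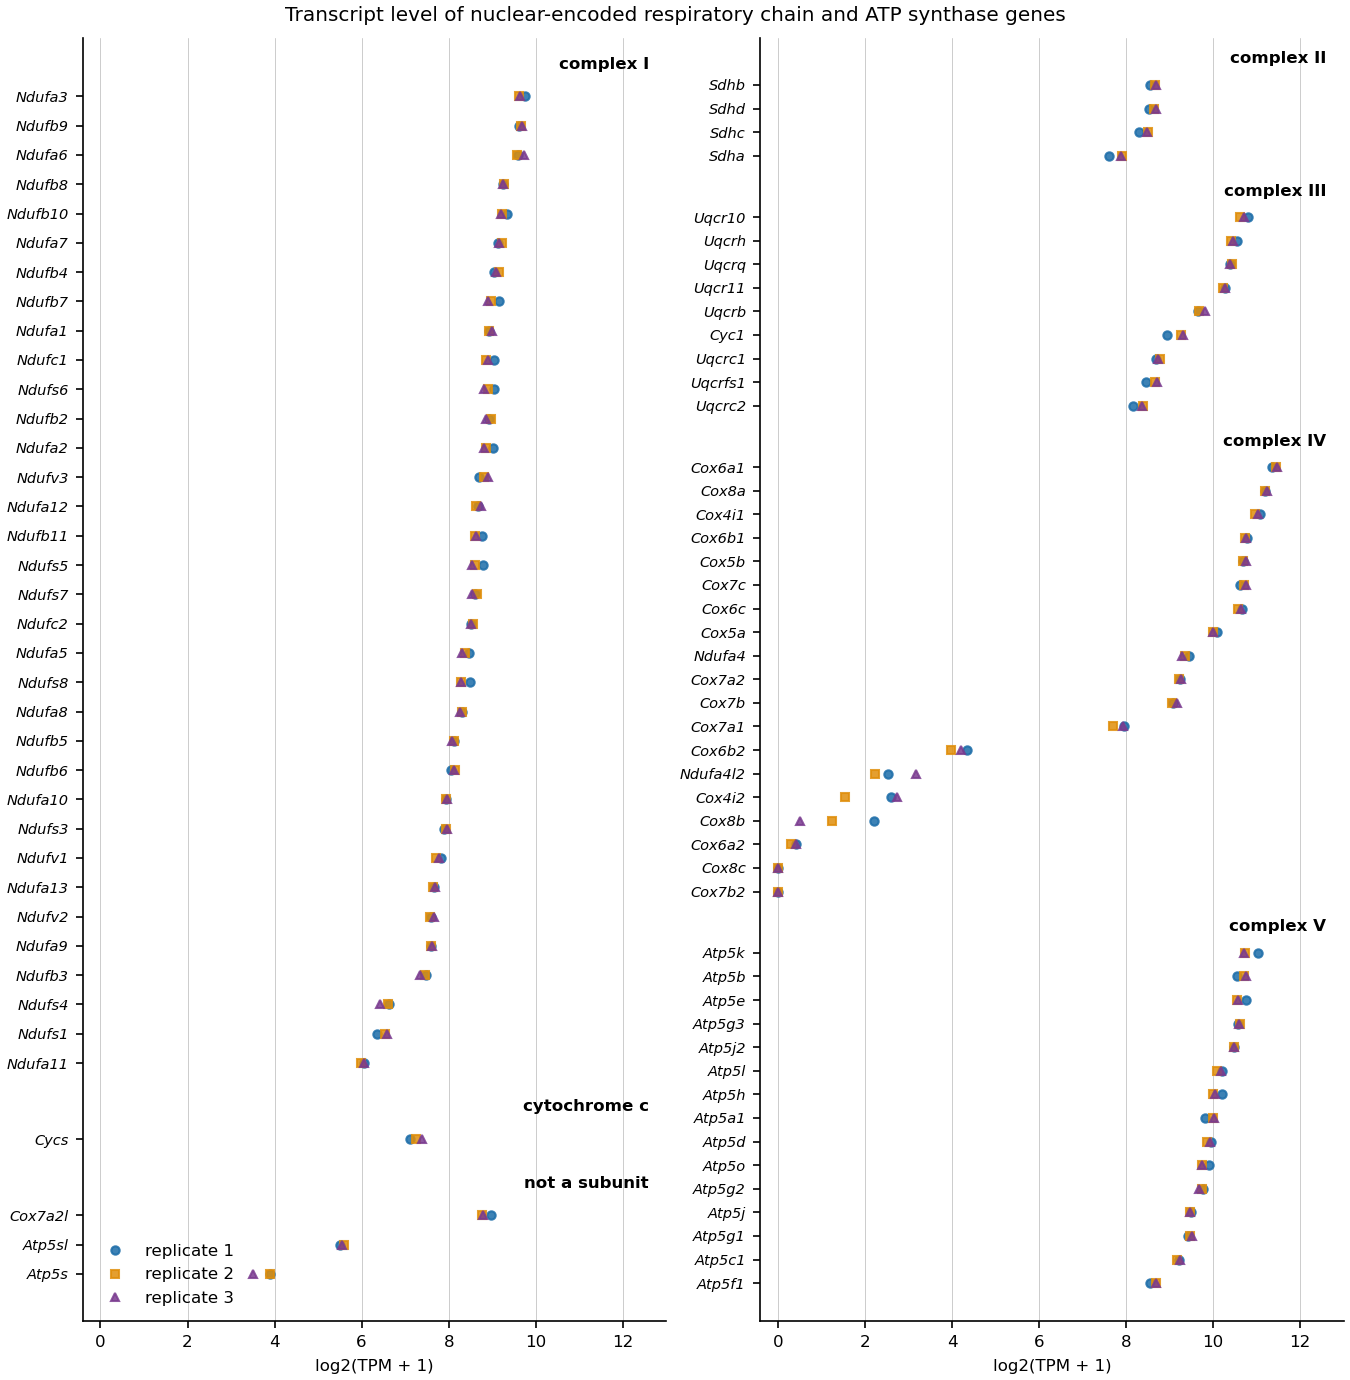
Level of the genes, by complex, on the log2(TPM + 1) axis, with 1 symbol per library and genes ordered by mean. Most genes lie between 6 and 12 on this scale with symbols that nearly coincide, while the lower complex IV isoforms lie apart at the left.

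Complex I, the NADH dehydrogenase, had the lowest median of the proton-pumping complexes. Its 35 members had a median of 389, 386 and 367 TPM in replicates 1, 2 and 3 (381 ± 12.1, SD, n = 3), and their means ran from 64.3 to 816 TPM. All 35 were at TPM 1 or more in every library. The 3 highest were accessory subunits, which surround the catalytic core and serve its assembly and stability. Ndufa3 had 864, 786 and 798 TPM in replicates 1, 2 and 3. Ndufb9, of the LYR motif family, had 785, 813 and 819 TPM. Ndufa6, another LYR family member, had 765, 755 and 851 TPM. The order of the 3 differs between libraries, so their levels overlap.

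The 3 lowest genes of complex I stood well below the other 32. Ndufs4, an accessory subunit whose loss in mice gives a Leigh syndrome-like encephalopathy, had 98.5, 96.5 and 85.3 TPM. Ndufs1, the large iron-sulfur subunit of the electron input arm, had 80.9, 91.9 and 94.6 TPM. Ndufa11, an accessory subunit of the membrane arm (chr17:56717762-56724248, GRCm38.p6), had the 62.0 to 65.7 TPM given above and did not overlap with Ndufs1. The next gene up, Ndufb3, averaged 170.0 ± 8.13 TPM (SD, n = 3), and the ratio of Ndufa3 to Ndufa11 was 12.7 ± 0.451.

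The conserved core, the subunits also present in the bacterial enzyme, was lower per gene than the accessory set. The 28 accessory genes had a median of 436, 424 and 436 TPM (432 ± 6.97), and the 7 nuclear-encoded core genes had 237, 245 and 247 TPM (243 ± 4.85, SD, n = 3 each). Among the core genes Ndufs7 averaged 387 ± 17.2 TPM, Ndufs8 326 ± 27.3, Ndufs3 243 ± 4.85, Ndufv1 217 ± 7.72 and Ndufv2 194 ± 6.25 TPM, with Ndufs1 lowest. Ndufv1 binds NADH and FMN, and Ndufs7 lies near the quinone site. The gap between the 2 sets was not tested and is a description of these levels.

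The remaining accessory genes filled the range between. Ndufb8, Ndufb10, Ndufa7, Ndufb4 and Ndufb7 averaged 517 to 612 TPM. Ndufa1, Ndufc1, Ndufs6, Ndufb2, Ndufa2, Ndufv3, Ndufa12 and Ndufb11 averaged 405 to 493 TPM, and Ndufs5, Ndufc2, Ndufa5 and Ndufa8 averaged 312 to 397 TPM. Ndufb5, Ndufb6, Ndufa10, Ndufa13 and Ndufa9 averaged 193 to 274 TPM. Ndufab1, the acyl carrier protein that sits in complex I and falls outside the symbol rule, averaged 454 ± 13.9 TPM, inside this range.

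Complex II, succinate dehydrogenase, is the only complex of the chain that also works in the citric acid cycle and is wholly nuclear-encoded. Its iron-sulfur subunit gene Sdhb had 374, 406 and 413 TPM in replicates 1, 2 and 3. The membrane anchor gene Sdhd had 367, 397 and 413 TPM, and the other anchor gene Sdhc had 315, 364 and 357 TPM. The catalytic flavoprotein gene Sdha (chr13:74322255-74350240, GRCm38.p6) was the lowest at 193, 238 and 234 TPM, with no overlap with the other members. Sdhb stood over Sdha by a ratio of 1.81 ± 0.123 (SD, n = 3). All 4 genes were lowest in replicate 1, as were 63.3% of all genes at 10 TPM or more.

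Complex III, the cytochrome bc1 complex, split into a high and a low set. Its 9 members had a median of 805, 821 and 899.6 TPM (842 ± 50.4, SD, n = 3). Of the small subunits, which carry no redox centre, Uqcr10 had 1769, 1571 and 1662 TPM. Uqcrh, the acidic hinge protein near the cytochrome c docking site, had 1499, 1369.9 and 1394 TPM. Uqcrq had 1339, 1379 and 1344 TPM and overlapped with Uqcrh. Uqcr11 averaged 1223 ± 15.6 TPM and Uqcrb, which contacts the quinone pocket, averaged 842 ± 50.4 TPM.

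The redox and core proteins of complex III were lower. Cyc1, the cytochrome c1 that hands electrons to cytochrome c, had 493, 614 and 631 TPM. Uqcrc1, a core protein related to mitochondrial processing peptidases, had 408, 439 and 427 TPM, and its partner Uqcrc2 had 284, 334 and 328 TPM. Uqcrfs1, the Rieske iron-sulfur protein, had 349, 403 and 420.1 TPM. The 4 genes had a median of 408 ± 25.2 TPM, the 5 small subunit genes had a median of 1351 ± 16.7 TPM (SD, n = 3 each), and no gene of the lower set reached any gene of the higher in any library.

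The transcript of cytochrome c was lower than the median transcript level of its partner complexes. Cycs (chr6:50562563-50566569, GRCm38.p6), the soluble carrier between complexes III and IV and a trigger of apoptosis when released, had 138, 150.4 and 167 TPM in replicates 1, 2 and 3 (152 ± 14.5, SD, n = 3). Cyc1 stood over Cycs by a ratio of 3.82 ± 0.255. Only Ndufs4, Ndufs1, Ndufa11, the 7 lowest complex IV isoforms, Atp5sl and Atp5s had lower means among the 86 genes. The testis form Cyct, outside the symbol rule, averaged 0.248 ± 0.0907 TPM. Cycs has 3 annotated pseudogenes that match it closely, and how the authors' counting split reads among such copies is not given in the sources used here.

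Complex IV, cytochrome c oxidase, held both the highest and the lowest genes. Over its 19 members the median was 607, 593 and 612 TPM (604 ± 10.1), and over the 11 widely expressed ones it was 1623, 1656 and 1714 TPM (1664 ± 46.2, SD, n = 3 each). Cox6a1 had the values given above and averaged 2744 ± 106 TPM. Cox8a, at a mean of 2358 ± 46.8 TPM, had 2329, 2333 and 2412 TPM. Cox4i1, the subunit that carries the ATP-responsive control of the enzyme, had 2143, 2007 and 2074 TPM. The order Cox6a1 over Cox8a over Cox4i1 held in each library with no overlap.

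Below these 3 genes, Cox6b1, Cox5b, Cox7c and Cox6c averaged 1726 ± 25.4, 1678 ± 45.5, 1653 ± 81.8 and 1584 ± 51.2 TPM, with ranges that overlap between neighbours. Cox5a averaged 1047 ± 35.9 TPM. Ndufa4, first assigned to complex I, averaged 657 ± 39.3 TPM, Cox7a2 604 ± 10.1 TPM and Cox7b 547 ± 21.8 TPM (SD, n = 3 each). Ndufa4 and Cox7a2 did not overlap, since the lowest Ndufa4 value was 619.5 TPM and the highest Cox7a2 value was 612 TPM.

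ATP synthase genes had the highest median of the multi-gene complexes when all members are counted: 982, 1023 and 1044 TPM over 15 genes (1016 ± 31.1, SD, n = 3). All 15 averaged 399 TPM or more. Atp5k, subunit e of the membrane part and involved in pairing of the enzyme into dimers, had 2092, 1693 and 1679 TPM, with replicate 1 apart from the other libraries. Atp5e, the epsilon subunit of the central stalk, was also highest in replicate 1, with 1727, 1499 and 1512 TPM. Atp5b, the catalytic beta subunit, ran the other way with 1487, 1663 and 1718 TPM.

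At the low end of complex V, Atp5f1 (subunit b of the peripheral stalk, named Atp5pb in RefSeq) had 371, 411 and 414 TPM. Atp5c1, the rotating gamma subunit, had 591, 579 and 605 TPM. Within the catalytic head, where alpha and beta alternate in a ring around gamma, Atp5a1 (alpha) had 905, 1028 and 1044 TPM. The ratio of Atp5b to Atp5a1 was 1.64, 1.62 and 1.65 in replicates 1, 2 and 3 (1.64 ± 0.0155, SD, n = 3). The ratio of Atp5b to Atp5c1 was 2.74 ± 0.198 and that of Atp5a1 to Atp5c1 was 1.68 ± 0.129. Transcript ratios say nothing of the protein ratios in the assembled enzyme.

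The c ring, the proton-driven rotor, is encoded by 3 genes whose mature proteins are known to be identical and whose import sequences differ. Atp5g3 had 1529, 1564 and 1555 TPM, 49.9% ± 0.289 of the summed c ring TPM (SD, n = 3). Atp5g2 had 863, 852 and 812 TPM, a share of 27.1% ± 0.909, and Atp5g1 had 689, 713 and 732 TPM, a share of 22.9% ± 0.633. The order of the 3 genes was the same in each library without overlap. Summed, the c ring genes stood over Atp5c1 by a ratio of 5.25 ± 0.145. Atp5g2 has 2 near-identical annotated pseudogenes and Atp5g1 has 1.

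The remaining stalk and membrane genes were Atp5j2 (subunit f, 1424 ± 8.77 TPM), Atp5l (subunit g, 1141 ± 41.9), Atp5h (subunit d, 1084 ± 83.4), Atp5o (the oligomycin sensitivity protein, 889 ± 54.0) and Atp5j (coupling factor 6, 711 ± 7.33 TPM). Atp5d, the delta subunit of the central stalk, averaged 962 ± 30.9 TPM (SD, n = 3 each). Atp5l and Atp5h have the most close copies of any member, 8 and 4 annotated pseudogenes, so their levels are uncertain. In all, 19 of the 86 genes had at least 1 annotated pseudogene transcript matching at 95% identity or more over 200 bases or more, 36 in total.

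The 3 genes that are not subunits were not alike. Cox7a2l, linked to supercomplexes of complexes III and IV, had 498, 434 and 443 TPM. Atp5sl, named Dmac2 in RefSeq and linked to complex I assembly, had 44.5, 47.1 and 45.7 TPM. Atp5s, named Dmac2l in RefSeq, had 13.9, 13.8 and 10.4 TPM and the largest SD of log2(TPM + 1) among the 80 members with a mean of 10 TPM or more, 0.22.

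Differences in level between complexes were taken within each library as the difference of the medians of log2(TPM + 1). Complex V stood above complex I by 1.33, 1.40 and 1.51 in replicates 1, 2 and 3 (1.41 ± 0.09, SD, n = 3). Complex III stood above complex I by 1.05, 1.09 and 1.29 (1.14 ± 0.13). Complex IV stood above complex I by 0.64, 0.62 and 0.74 (0.66 ± 0.06). With means over members in place of medians, the isoforms near 0 included, complex IV minus complex I was -1.40 ± 0.08. The median difference was 1.12 over members with a mean of 1 TPM or more. Over established subunits without the restricted isoforms it was 2.13, above the 1.41 of complex V. Complex II minus complex I was -0.19, -0.02 and 0.07 (-0.05 ± 0.13), which is within the spread between libraries. With 3 libraries the exact two-sided sign-flip permutation test cannot give less than p = 0.25: it gave 0.25 for complexes III, IV and V, each higher in 3 of 3 libraries, and 0.75 for complex II (0.268 and 0.75 after Benjamini-Hochberg adjustment over 15 differences). None passed a threshold of 0.05, which this design cannot reach.

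Several complex IV subunits have a widely expressed form and a paralogue restricted to certain tissues or conditions. In these cells the widely expressed form was the higher in every pair and every library. Of the restricted forms, Cox7a1, Cox6b2, Ndufa4l2 and Cox4i2 were at TPM 1 or more in every library, and the last 2 averaged under 10 TPM. The pairs were placed side by side within each library as differences of log2(TPM + 1), the widely expressed form minus its paralogue.

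**Figure D2:**
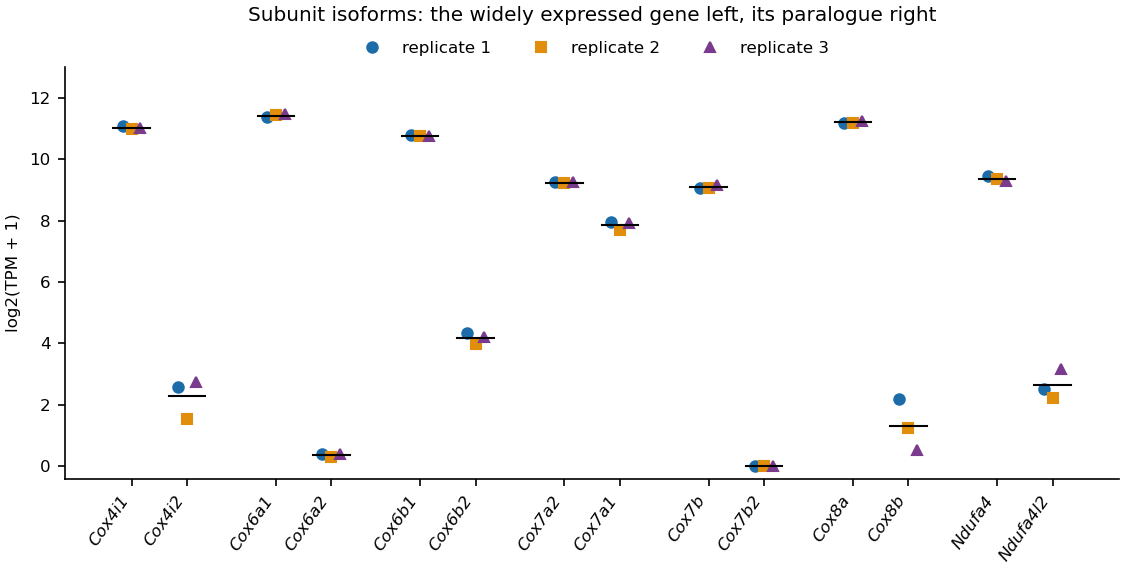
Level of the 7 pairs of complex IV isoforms on the log2(TPM + 1) axis, widely expressed gene at the left of each pair, 1 symbol per library and a bar at the mean. Cox7a1 lies closest to its partner, and Cox7b2 lies at 0 in all 3 libraries.

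Cox7a1 and Cox7a2 had the smallest gap of the pairs. Cox7a1 (chr7:30184171-30186030, GRCm38.p6), the form known from heart and skeletal muscle, had 247, 208 and 244 TPM in replicates 1, 2 and 3, a share of 27.8% ± 1.58 of the pair (SD, n = 3). Cox7a2 minus Cox7a1 was 1.30, 1.51 and 1.32 (1.38 ± 0.11), with no overlap between the 2 genes in any library. Cox7a1 was lowest in replicate 2, where the fibroblast, smooth muscle, leukocyte and blood endothelium marker sums were also lowest. It was highest in replicate 1, whereas those sums were highest in replicate 3. The median of the blood endothelium markers was instead highest in replicate 1 and lowest in replicate 3 (116, 99.5 and 87.3 TPM). The part of any of these cells in the level of Cox7a1 was not tested.

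The testis form Cox6b2 had 19.2, 14.7 and 17.4 TPM, 0.98% ± 0.117 of the sum with Cox6b1, a subunit on the intermembrane side of the enzyme. Cox6b1 minus Cox6b2 was 6.58 ± 0.17. Cox4i2, a hypoxia-linked form known from lung and pericytes, had 5.02, 1.89 and 5.63 TPM, and Cox4i1 minus Cox4i2 was 8.74 ± 0.62. The highest library of Cox4i2 stood over its lowest, replicate 2, by a ratio of 2.98 in TPM.

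Ndufa4l2, a hypoxia-induced gene also known as a pericyte marker, had 4.76, 3.71 and 7.97 TPM, and Ndufa4 minus Ndufa4l2 was 6.72 ± 0.53. Like Cox4i2, it was lowest in replicate 2 and highest in replicate 3, the order of the smooth muscle and pericyte marker sum (227, 181 and 404 TPM in replicates 1, 2 and 3). The fibroblast, leukocyte and blood endothelium marker sums had the same order. The median of the blood endothelium markers did not: it was 116, 99.5 and 87.3 TPM in replicates 1, 2 and 3. The part of any of these cells in either gene was not tested. Both genes also overlap another gene of the tables, Cox4i2 with Bcl2l1 and Ndufa4l2 with Shmt2. So do other members, among them Cox7a2 with Tmem30a and Cox6a2 with Itgad. The strand setting of the counting is not given in the sources used here.

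Cox8b, a form of mouse heart, skeletal muscle and brown fat, had 3.60, 1.37 and 0.432 TPM, and Cox8a minus Cox8b was 9.88 ± 0.87. Cox6a2, another striated muscle form, had 0.330, 0.224 and 0.328 TPM, and Cox6a1 minus Cox6a2 was 11.05 ± 0.10 (SD, n = 3). The testis forms Cox7b2 and Cox8c were listed at 0 in all 3 libraries, and no difference was computed for them. The 6 differences computed were above 0 in 3 of 3 libraries, with p = 0.25 by the exact two-sided sign-flip permutation test, the smallest it can give (0.268 after adjustment over 15 differences). The gaps of 6.58 or more are over 10 times their SD, and these folds understate the change for genes near the pseudocount.

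The 100 bases upstream of the RefSeq start are shown for 3 pairs that have a promoter window on both sides. The members of a pair differ in level, and their stretches were not aligned. Capitals mark the ETS letters CCGGAAG, which GABP can bind, and the SP letters GGGCGG, on either strand. The start used for Cox7a2 lies inside the RefSeq gene, which reaches further upstream.
Cox6b1, chr7:30626115-30626214, minus strand: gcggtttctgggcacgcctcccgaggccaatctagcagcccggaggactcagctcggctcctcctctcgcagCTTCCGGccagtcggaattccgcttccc
Cox6b2, chr7:4753095-4753194, minus strand: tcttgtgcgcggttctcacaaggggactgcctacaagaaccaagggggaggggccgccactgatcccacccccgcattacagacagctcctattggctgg
Cox7a2, chr9:79759854-79759953, minus strand: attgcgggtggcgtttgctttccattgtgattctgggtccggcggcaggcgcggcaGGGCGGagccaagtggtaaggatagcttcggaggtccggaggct
Cox7a1, chr7:30184071-30184170, plus strand: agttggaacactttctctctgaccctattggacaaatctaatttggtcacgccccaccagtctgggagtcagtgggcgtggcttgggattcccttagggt
Cox8a, chr19:7217617-7217716, minus strand: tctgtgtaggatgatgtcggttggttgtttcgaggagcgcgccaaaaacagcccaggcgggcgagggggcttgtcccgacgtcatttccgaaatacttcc
Cox8b, chr7:140900447-140900546, minus strand: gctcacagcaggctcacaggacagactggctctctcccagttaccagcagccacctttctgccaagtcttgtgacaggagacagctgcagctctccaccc

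In the stretches shown, Cox6b1 held ETS letters and Cox7a2 held SP letters, while Cox6b2, Cox7a1, Cox8a and Cox8b held neither. In the full windows, from 250 bases before the start to 50 after it, Cox8a held ETS letters in copies at and after the start and Cox6b2 held SP letters further upstream. Cox7b and Cox7b2 also had windows on both sides and are not shown. The window of Cox7b held no NRF1, YY1, ETS or SP letters, and that of Cox7b2 held SP letters. Of the 8 tissue-restricted or hypoxia-linked isoforms, 4 had a window, and none of the 4 held NRF1, YY1 or ETS letters. Among the other members with a window, 29 of 66 did (43.9%). With 4 genes on one side this is a description and was not tested.

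Motif letters were counted on both strands in the windows of the 70 members that had one, 76 windows in all. A gene was counted if any of its windows held the letters. The 10187 expressed genes had 12950 windows, more per gene than the members, so the shares are not on an equal basis. NRF1 letters were found in 11 of 70 members (15.7%), against 5.83% of the genes at TPM 1 or more in all 3 libraries and 3.05% of all genes with a window. They are Ndufa6, Ndufa8, Ndufa11, Sdhb, Uqcr11, Uqcrc1, Cycs, Cox6a1, Atp5g2, Atp5k and Atp5l. In Uqcr11 and Uqcrc1 the letters lay across or after the start and are not shown. By complex the counts were 3 of 31 in complex I, 1 of 3 in complex II, 2 of 5 in complex III, 1 of 13 in complex IV and 3 of 14 in complex V, beside Cycs.

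The YY1 letters AAGATGGCG were found in 8 of 70 members (11.4%), against 3.53% of expressed genes. They are Ndufa9, Ndufc1, Ndufs4, Ndufs6, Ndufs7, Atp5j, Atp5j2 and Atp5sl, so 5 of the 8 belong to complex I. The shorter letters ATGGC, contained in the longer motif, were found in 35 of 70 members, against 43.0% of expressed genes. ETS letters were found in 16 members (22.9%), close to the 19.9% of expressed genes, and SP letters in 29 members (41.4%), below the 67.9% of expressed genes.

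The mitochondrial ribosomal protein genes, another nuclear set for the same organelle, had NRF1 letters in 11.6% and YY1 letters in 11.6% of 69 genes with a window. The cytosolic ribosomal protein genes had them in 4.69% and 6.25% of 64 genes. The ETS share was lower in the respiratory chain genes (22.9%) than in both sets (37.7% and 37.5%). The median GC content of the windows was 57.8% in members and 60.7% in expressed genes. These shares were not tested, and a match of letters is not evidence of binding.

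**Figure D3:**
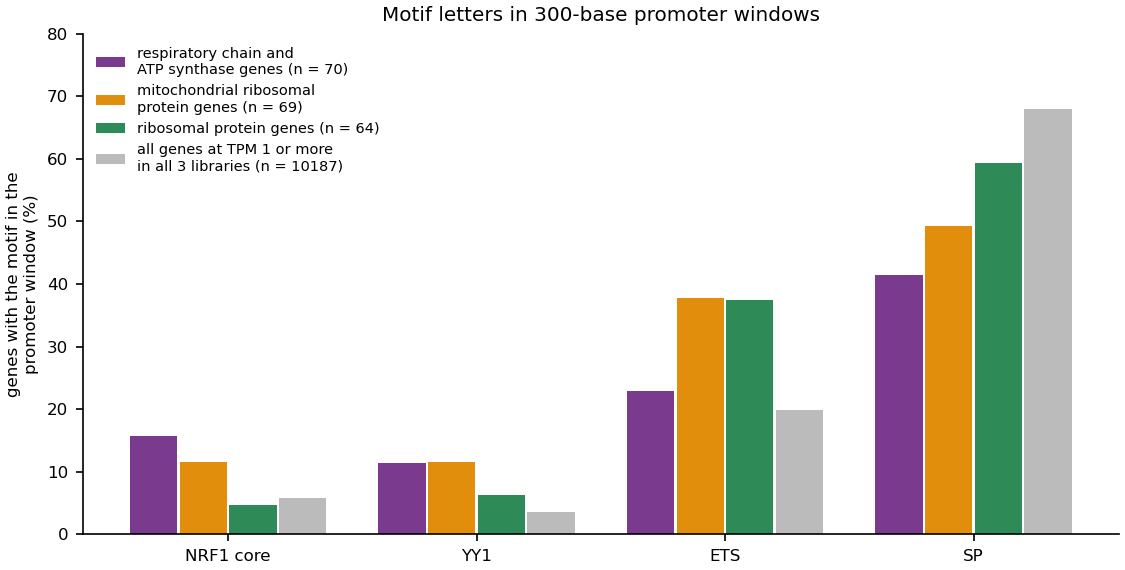
Share of genes whose promoter window of 300 bases holds the letters of each motif on either strand, in percent, for the respiratory chain genes and, from left to right after them, mitochondrial ribosomal protein genes, cytosolic ribosomal protein genes and all expressed genes. The NRF1 bar is highest for the respiratory chain genes (15.7%), and the SP bar is lowest for them (41.4%).

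Regulators of mitochondrial gene expression, some of which act on nuclear genes and others on mitochondrial DNA or RNA, had a lower median than the members. All 17 listed regulators were at TPM 1 or more in every library, with a median of 15.9 ± 0.776 TPM (SD, n = 3). The highest were Slirp, a mitochondrial RNA-binding protein (187 ± 10.7 TPM), Esrra, the estrogen-related receptor alpha (122 ± 20.3 TPM), and Yy1 (55.6 ± 7.79 TPM). The lowest were Tfb1m (9.48 ± 0.814 TPM), the coactivator gene Ppargc1a (6.29 ± 1.77 TPM) and Mterf1a (4.49 ± 0.442 TPM). Nrf1 averaged 13.1 ± 1.62 TPM and Gabpa 14.5 ± 1.99 TPM, both lowest in replicate 1.

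Assembly factors, which build the complexes and do not stay in them, were also far lower than the subunits. The members had a median of 469 ± 18.6 TPM, and the 44 assembly factors found had 24.4 ± 2.53 TPM (SD, n = 3 each). The difference in the median of log2(TPM + 1) was 4.21 ± 0.20. The highest were Cox17 (427 ± 16.4 TPM), a copper chaperone for complex IV, Cox14 (325 ± 15.7 TPM) and Coa3 (321 ± 4.74 TPM), both early complex IV factors. The lowest were Ndufaf5 (8.78 ± 0.745 TPM), Coa7 (6.88 ± 1.39 TPM) and Lyrm7 (3.58 ± 0.184 TPM), the last a complex III factor for the Rieske protein. All 44 were at TPM 1 or more in every library.

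Against other genes that every cell uses, the members lay between the cytosolic and the mitochondrial ribosome. Members minus the 84 cytosolic ribosomal protein genes was -2.31, -2.15 and -2.11 in replicates 1, 2 and 3 (-2.19 ± 0.10). Members minus the 78 mitochondrial ribosomal protein genes was 2.69 ± 0.07, and members minus the 40 proteasome subunit genes was 2.04 ± 0.06. The 16 genes of the tricarboxylic acid cycle and pyruvate dehydrogenase had a median of 143 ± 16.7 TPM, and members minus these was 1.72 ± 0.23 (SD, n = 3 each). Each of the 5 list differences had 1 direction in 3 of 3 libraries and p = 0.25 by the exact sign-flip permutation test (0.268 adjusted).

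In the tricarboxylic acid cycle list, Mdh2 (480.1 ± 9.81 TPM), Suclg1 (395 ± 7.89 TPM) and Idh3b (264 ± 20.7 TPM) were highest. Sucla2 (81.7 ± 5.36 TPM), Ogdh (76.8 ± 15.9 TPM) and Dlat (32.2 ± 5.95 TPM) were lowest. The glycolysis list of 15 genes had a median of 266 ± 22.9 TPM, with Gapdh at 1694 ± 171 TPM, Aldoa at 1003 ± 86.1 TPM and Ldha at 788 ± 48.0 TPM. Pfkp (46.0 ± 9.22 TPM), Hk2 (24.9 ± 6.83 TPM) and Pfkm (7.94 ± 1.15 TPM) were lowest. Of the other inner membrane partners, the ADP/ATP carrier gene Slc25a5 averaged 1640.4 ± 121 TPM, Usmg5, a small ATP synthase-associated protein gene, 1267 ± 76.7 TPM and the phosphate carrier gene Slc25a3 853 ± 60.6 TPM. Opa1 (up to 28.3 TPM), Hccs, which attaches heme to cytochrome c (17.0 ± 2.22 TPM), and Cyct were lowest of the 20 found.

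The members varied little between the 3 libraries. None of the 80 members with a mean of 10 TPM or more differed by 2-fold or more between its highest and lowest library on the log2(TPM + 1) scale, against 3.65% of all such genes, and none of the 74 at 100 TPM or more did, against 1.83%. The median SD of log2(TPM + 1) was 0.07 in the 80 members and 0.16 in all 8437 genes of that level. Among genes of 100 TPM or more it was 0.06 in members and 0.11 in all. Low spread was not particular to the members. At 10 TPM or more the median SD was 0.08 in the 78 mitochondrial ribosomal protein genes and 0.08 in 37 proteasome genes. It was 0.14 in the cytosolic ribosomal protein genes and 0.15 in the tricarboxylic acid cycle genes. None of these 4 sets held a gene with a 2-fold range. Ndufa9, an accessory subunit near the quinone site of complex I, had the smallest SD: 193, 193 and 194 TPM in the 3 libraries.

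After Atp5s, the most variable of the 80 members with a mean of 10 TPM or more were Cyc1 (SD of log2(TPM + 1) 0.20), Cox6b2 (0.18), Atp5k (0.18), Sdha (0.17), Uqcrfs1 (0.14), Cox7a1 (0.14), Cycs (0.14), Ndufs5 (0.13) and Ndufb7 (0.13). Cyc1, Sdha, Uqcrfs1 and Cycs were lowest in replicate 1. Atp5k, Cox6b2, Cox7a1, Ndufs5 and Ndufb7 were highest in replicate 1, with 439, 387 and 367 TPM for Ndufs5 and 569, 502 and 479 TPM for Ndufb7 in replicates 1, 2 and 3. In Cox6b2 and Cox7a1 it was replicate 2 that lay apart, at the low end.

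Replicate 1 was the highest library for 34 of the 80 members (42.5%), against 19.2% of all genes of that level. Replicate 2 was highest for 17 (21.2%), against 43.0%, and replicate 3 for 29 (36.2%), against 37.9%. Among all genes at 100 TPM or more, a background added after the data were seen, the shares were 38.5%, 27.2% and 34.3% for replicates 1, 2 and 3. After rescaling TPM without ribosomal protein genes and Mir6236 the counts were 51, 9 and 20 members. The shares of all genes at 10 TPM or more were then 24.8%, 40.5% and 34.7%. The rescaled shares at 100 TPM or more, the level of most members, were not computed, so these counts have no background of like level. The rescaling factor was largest for replicate 1 (1.34, against 1.29 and 1.28), so a gene already highest there stayed highest. The colon epithelium marker sum was lowest in replicate 1 and the share of TPM in ribosomal protein genes was 20.2%, 17.5% and 16.9% in replicates 1, 2 and 3. Their part in these counts was not tested.

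The parts of the chain did not move together. All 4 complex II genes, all 4 redox and core genes of complex III, and Cycs were lowest in replicate 1, where 63.3% of all genes at 10 TPM or more and 43.2% of those at 100 TPM or more were lowest. The counts for these 9 genes were the same after rescaling. The median deviation from the mean of the libraries on the log2(TPM + 1) scale in replicates 1, 2 and 3 was -0.11, 0.05 and 0.06 for complex II and -0.15, 0.07 and 0.09 for these complex III genes. For all genes at 10 TPM or more it was -0.11, 0.07 and 0.05, and for all genes at 100 TPM or more, a level that each of these 9 genes reached, it was -0.01, 0.02 and 0.00. The tricarboxylic acid cycle genes, to which complex II is joined in function, had -0.16, 0.08 and 0.07, with 14 of 16 lowest in replicate 1, also after rescaling.

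The ATP synthase stalk and membrane genes ran the other way: 6 of 7 were highest in replicate 1, and Atp5f1 was the exception. The share highest there was 19.2% of all genes at 10 TPM or more. It was 38.5% of those at 100 TPM or more, a level that all 7 reached. The count was the same after rescaling. The rescaling factor was largest for replicate 1, so counts of genes highest there could only stay or rise. The cytosolic ribosomal protein genes had a median deviation of 0.15, -0.05 and -0.10 in replicates 1, 2 and 3, also highest in replicate 1. In complex I the medians were 0.00, -0.01 and -0.01, with 14 of 35 genes highest in replicate 1, and 25 of 35 after rescaling. The glycolysis genes were highest in replicate 3 in 13 of 14 cases and in 11 of 14 after rescaling, against 37.9% and 34.7% of all genes. These counts and deviations were not tested.

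**Figure D4:**
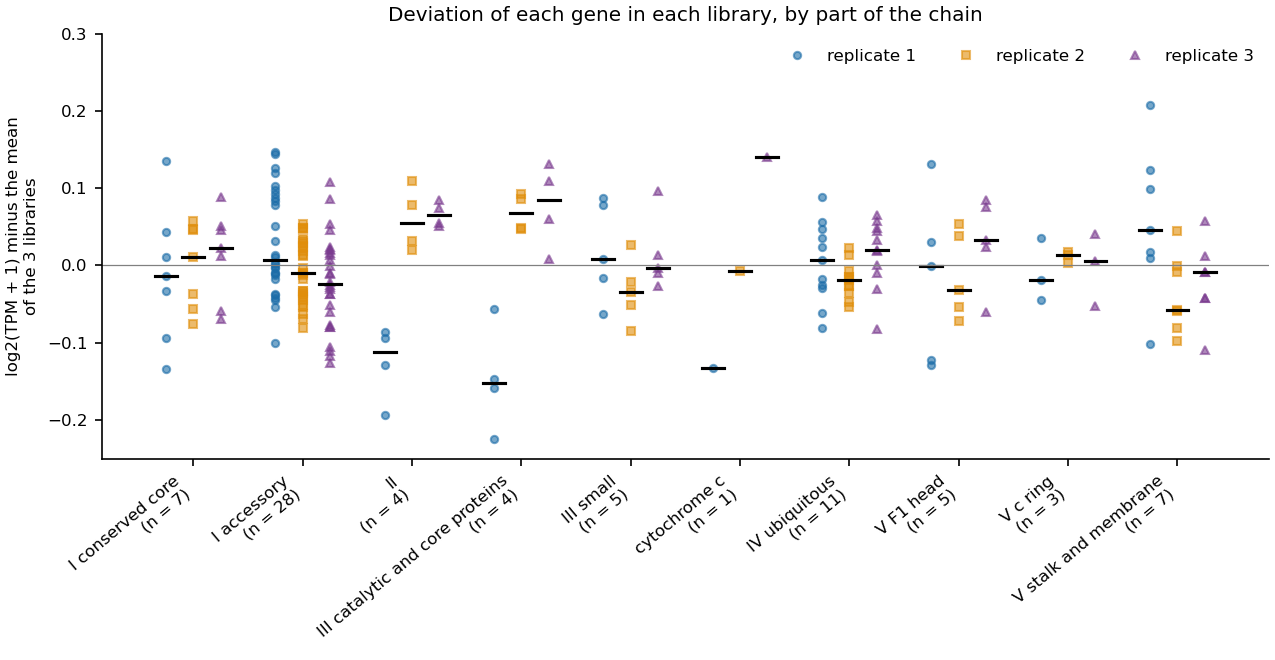
Deviation of each gene with a mean of 10 TPM or more from its mean over the 3 libraries, on the log2(TPM + 1) scale, by part of the chain, with bars at the medians. In complex II, the catalytic and core genes of complex III and Cycs, every replicate 1 symbol lies below 0, while 6 of 7 stalk and membrane genes of complex V lie above 0 in replicate 1.

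Length accompanied both the levels and these deviations, a relation looked for after the data were seen. The members encode short transcripts and proteins: the median annotated transcript of the 80 members had 863 bases and the median protein 142 residues, against 2670 bases and 416 residues for all genes at 10 TPM or more. Across the 80 members the Spearman correlation between mean TPM and transcript length was -0.43, and it was -0.53 in the 35 complex I genes and -0.40 over 8223 genes. These are descriptions across genes of the same libraries, which share their normalization and are not independent replicates. TPM itself divides by length. The length used for Atp5g1, 4715 bases, exceeds the span of its RefSeq gene (chr11:96072793-96075694). Some lengths may therefore not be those of the transcripts measured.

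The deviation of replicate 1 from the other libraries also went with length. Its Spearman correlation with transcript length was -0.47 across the 80 members, -0.19 across the 35 complex I genes and -0.56 over 8223 genes. For replicate 2 it was 0.54 in members and 0.49 in all genes, and for replicate 3 0.27 and 0.38. Of the 40 members with the shorter proteins, 21 were highest in replicate 1, and of the 40 with the longer proteins, 13. Over all genes split at the same 142 residues, 47.7% of the shorter and 16.5% of the longer were highest in replicate 1. Cyc1, Sdha, Cycs and Uqcrfs1, all lowest in replicate 1, have annotated transcripts of 1520, 2900, 3123 and 1363 bases, and Atp5k, highest there, one of 371 bases. Other members went against the relation. Atp5s, the most variable, has 1599 bases and was highest in replicate 1. Cox7c, Uqcrb and Cox6a1, of 540, 535 and 571 bases, were lowest there. RNA quality was not given for these libraries, and its part in the differences was not tested.

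**Figure D5:**
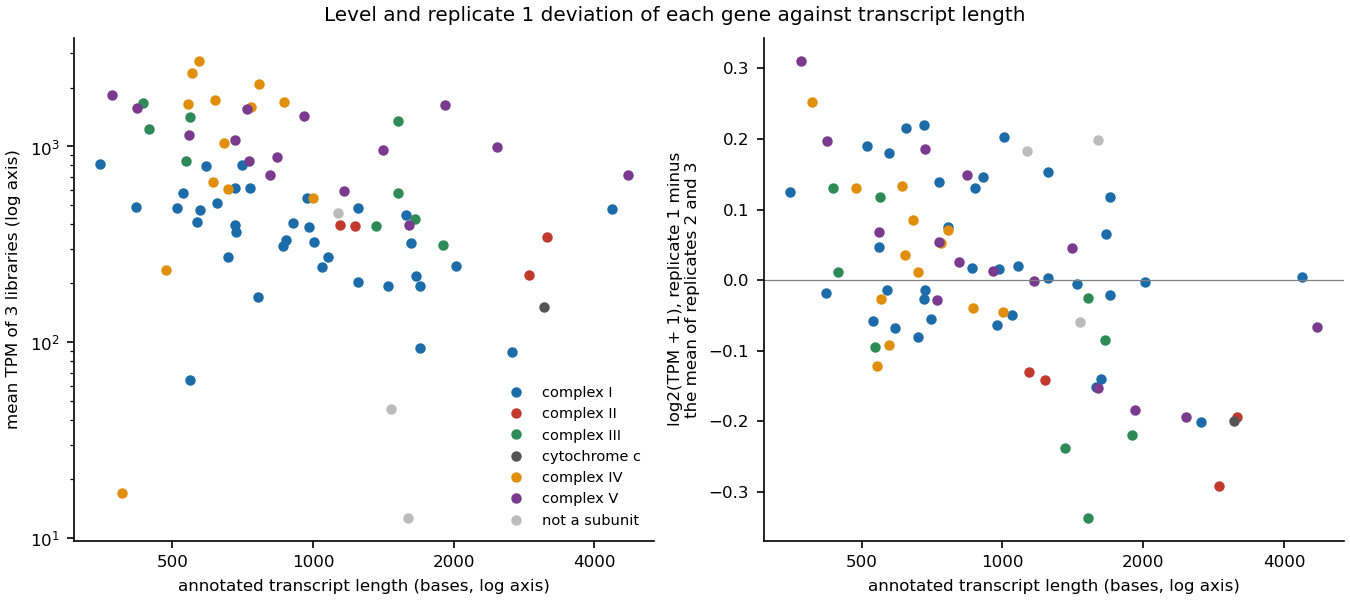
Left, mean TPM of each of the 80 members against annotated transcript length, both on log axes; right, log2(TPM + 1) of replicate 1 minus the mean of replicates 2 and 3 against the same length, coloured by complex. Levels are lower at greater length (rho -0.43), and the replicate 1 deviation passes from mostly positive to mostly negative (rho -0.47).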

How the data were processed

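Bulk RNA-seq of 3 libraries of sorted lymphatic endothelial cells was analysed. The authors deposited 1 table of TPM values per library, with an Entrez ID and symbol for each gene, per the file headers. The submitters' processing notes name mm10, Cell Ranger 6.0.1 and HTSeq; how TPM was computed, the annotation and the strand setting are not given in the sources used here. Depth cannot be recovered from TPM.

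The members and gene lists were chosen with earlier results of these data known. Named genes were the 3 highest and 3 lowest by mean TPM of each complex and list, all isoform pairs, c ring genes, Cycs, Cyc1 and the 10 most variable members; further members are named to account for the set, and 1 member, included in all counts and medians, is not reported singly here.

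Levels are TPM per library with mean and SD. Differences used log2(TPM + 1), with no filter on low values, and exact two-sided sign-flip permutation tests with Benjamini-Hochberg adjustment over 15 differences. Symbols matched RefSeq (GRCm38.p6, the assembly mm10 stands for) by Entrez ID for 86 of 86 members, 83 under the same symbol; coordinates are 1-based. Promoter windows of 300 bases came from RefSeq. Transcript and protein lengths came from the GENCODE M21 protein-coding transcript with the longest coding sequence, and of equal ones from the longest transcript. Close copies came from blastn 2.17.0 against 13607 pseudogene transcripts. Python 3.11.15, pandas 2.3.3, numpy 2.4.6 and scipy 1.17.1 were used. Alternatives were a pseudocount of 0.1, TPM rescaled without ribosomal protein genes and Mir6236, filters on low values, established subunits only, means for medians and leaving out each library. Mitochondrially encoded genes are not analysed here, so shares of TPM are shares of the genes of the tables alone, and protein sequences were not used.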

Additional observations from a re-analysis of the deposited data

How the results depend on the processing

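Of the complex differences, 30 of 32 values under the alternatives kept their direction, as did all 30 isoform and all 35 list differences; none could pass the threshold, since the exact test allows no p below 0.25 with 3 libraries and 0.5 with 2. Complex IV minus complex I turned to -1.40 with means over members in place of medians. Complex II minus complex I turned to 0.022 without replicate 1 and ranged from -0.11 to 0.022 over the sets that leave out 1 library. TPM rescaled without ribosomal protein genes and Mir6236 (factors 1.34, 1.29 and 1.28) gave medians of 496.6 TPM for complex I, 480.4 for II, 1097 for III, 197 for cytochrome c, 787 for IV and 1324 for V, a share of 7.45% of TPM for all members, and 9 members highest in replicate 2. Members with a mean of 1 TPM or more gave a complex IV median of 852 TPM, and 2 members (Cox4i2 and Cox8b) with a 2-fold range between libraries. Established subunits only gave a complex IV median of 1664 TPM and a share of 5.64%. Leaving out 1 library moved the complex medians to 376 to 388 TPM for I, 361 to 383 for II, 813 to 861 for III, 144 to 159 for cytochrome c, 599.8 to 609.6 for IV and 1002 to 1033 for V, the share to 5.69% to 5.75%, and the count at TPM 1 or more to 82 to 83. The backgrounds at 100 TPM or more, the split by protein length and the rescaled counts by complex were added after seeing the data. No paired analysis was possible because the 3 libraries form 1 group. TPM holds no depth, so the precision of the low isoforms is unknown.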
